A study of Mus musculus with 13 samples.

Results

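Mouse bone marrow-derived macrophages that received LPS and IL-10 together for 195 min were compared with macrophages left untreated, by the level of H3K27ac over the genome. H3K27ac, histone H3 acetylated at lysine 27, was measured by chromatin immunoprecipitation with an antibody to the mark, followed by sequencing. The comparison holds 6 of the 12 ChIP libraries of the series: 3 given LPS and IL-10 together, each at 1 ng/mL, over 195 min (continuous IL-10) and 3 untreated. All 40691 consensus regions belong to it, and 36621 of them, above the 10th percentile of mean log2 value over the 12 libraries, were tested. Some tested regions held 1 read, the lowest value possible, in all 6 libraries of the comparison. The 3 libraries with LPS alone at 1 ng/mL for 195 min are set beside it to show how much of the LPS level was kept, and 3 libraries with IL-10 in the last 30 min entered the estimate of the spread and are given beside the regions that were higher than with LPS and than untreated. Every group carries the same background: IL10-/- RAG2-/- animals of strain 129S6/SvEvTac, whose cells make no IL-10 and which have no mature lymphocytes. The macrophages were differentiated from bone marrow with M-CSF over 5 days. Libraries are numbered 1, 2 and 3, and the series' design names 3 independent macrophage pools, which the numbers were taken to mark. The fit takes out differences between pools. Its p-values measure the spread left between libraries after group and pool are accounted for.

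LPS, a component of the bacterial outer membrane, signals through TLR4 to NF-kB, to AP-1 and, by way of secreted interferon beta, to genes with interferon response elements. IL-10 signals through its receptor to STAT3 and is known in macrophages for lowering the output of inflammatory cytokine genes while raising genes such as Socs3 and Nfil3. H3K27ac lies over active promoters and enhancers, is written by the acetyltransferases p300 and CBP, and is removed by histone deacetylases. In a bulk ChIP, fewer cells carrying the mark and less of the mark per cell cannot be told apart.

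The 5 promoters below belong to genes on which the results turn. They are given as RefSeq sequence, build GRCm38.p6, from 250 bases before to 50 bases after the gene start, 5′ to 3′ on the gene's strand. Capitals mark matches, on either strand, to TTCNNNGAA (STAT), GAAA, any 2 bases and GAAA (interferon response element), TGANTCA (AP-1) or the NF-kB consensus. In the Cxcl10 promoter, a pair of NF-kB matches overlap and run together as a single stretch of capitals.
Socs3 (chr11:117969317-117969616, minus strand): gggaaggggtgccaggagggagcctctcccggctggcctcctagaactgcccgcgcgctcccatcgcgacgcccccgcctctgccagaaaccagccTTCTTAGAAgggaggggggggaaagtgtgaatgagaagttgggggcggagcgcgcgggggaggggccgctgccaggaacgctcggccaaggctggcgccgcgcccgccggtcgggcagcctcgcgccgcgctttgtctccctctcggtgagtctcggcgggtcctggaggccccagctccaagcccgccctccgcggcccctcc
Nfkbia (chr12:55492598-55492897, minus strand): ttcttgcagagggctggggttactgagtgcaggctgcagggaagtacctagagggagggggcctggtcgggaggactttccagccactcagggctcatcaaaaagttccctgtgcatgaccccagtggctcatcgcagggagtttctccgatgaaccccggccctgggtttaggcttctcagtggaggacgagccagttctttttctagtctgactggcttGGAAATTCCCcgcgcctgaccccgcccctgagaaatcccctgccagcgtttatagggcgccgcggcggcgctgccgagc
Cxcl10 (chr5:92348840-92349139, minus strand): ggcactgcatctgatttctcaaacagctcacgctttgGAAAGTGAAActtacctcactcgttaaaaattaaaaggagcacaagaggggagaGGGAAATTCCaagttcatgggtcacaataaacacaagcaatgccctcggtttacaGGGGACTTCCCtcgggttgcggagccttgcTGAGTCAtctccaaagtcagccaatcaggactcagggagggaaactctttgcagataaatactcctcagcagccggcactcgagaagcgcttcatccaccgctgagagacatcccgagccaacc
Rsad2 (chr12:26456403-26456702, minus strand): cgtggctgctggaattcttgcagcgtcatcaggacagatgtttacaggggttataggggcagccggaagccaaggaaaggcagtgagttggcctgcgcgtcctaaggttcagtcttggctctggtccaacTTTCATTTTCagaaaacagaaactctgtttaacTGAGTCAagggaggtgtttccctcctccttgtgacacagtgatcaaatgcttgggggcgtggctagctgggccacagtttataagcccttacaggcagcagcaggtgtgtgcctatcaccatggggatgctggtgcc
Il6 (chr5:30012864-30013163, plus strand): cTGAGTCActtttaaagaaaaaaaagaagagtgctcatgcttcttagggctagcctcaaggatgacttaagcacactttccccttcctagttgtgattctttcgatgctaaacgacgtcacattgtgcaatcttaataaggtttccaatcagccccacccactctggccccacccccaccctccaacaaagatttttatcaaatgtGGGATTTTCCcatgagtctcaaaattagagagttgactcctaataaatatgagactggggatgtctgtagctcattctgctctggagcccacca
The regions that hold the Socs3 and Nfkbia starts were higher with continuous IL-10 than in untreated cells and than with LPS alone. Those of Cxcl10 and Rsad2 were higher than in untreated cells and lower than with LPS, and that of Il6 was at the floor of 1 read per library with continuous IL-10. The values follow with each gene. Across the 21263 promoters of the RefSeq table, 3.35% held the interferon response element, 7.69% the STAT motif, 9.25% an NF-kB match and 6.99% the AP-1 motif. Of 1279 promoters whose start lay in a region higher with continuous IL-10 than in untreated cells, 5.32% held the interferon response element, 8.52% the STAT motif, 13.0% an NF-kB match and 7.27% the AP-1 motif. Of 1337 in regions lower than untreated, the shares were 3.37%, 6.43%, 11.2% and 6.66% in the same order. Of the 11701 promoters with a start in any tested region, they were 3.32%, 6.81%, 10.5% and 5.06%. Against LPS, the 521 promoters in higher regions held these motifs in 3.26%, 9.98%, 10.9% and 8.83%, and the 764 in lower regions in 10.7%, 7.20%, 12% and 7.85%. A PU.1 motif, GAGGAAGT, was in 4.38% of promoters higher than untreated, 4.79% of those lower than untreated, 6.53% of those higher than LPS and 4.19% of those lower than LPS, beside 3.39% of those in any tested region and 3.13% of all promoters. These shares are descriptions of short letter matches and were not tested.

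The deposited value of a region is its whole number of reads times a factor for the library, with a floor of 1 read. The reads recovered over all regions were 5926251 to 10035619 per library with continuous IL-10, 5149730 to 20884182 with LPS and 7208540 to 26922552 in untreated cells. A region held a median of 18 to 32 reads with continuous IL-10 and of 30 to 89 reads in untreated cells, and 23.1% to 29.9% against 19.7% to 26.8% of regions stood at 1 read. On the log2 scale, libraries correlated across regions at r = 0.803 to 0.880 within continuous IL-10 and at 0.870 to 0.917 within untreated cells. LPS replicate 3 stood apart, with r = 0.721 and 0.742 to its group's other libraries, against 0.916 between those. Replicate 3 with IL-10 in the last 30 min did so to a lesser degree, at 0.7932 and 0.7915 against 0.8941. Values below are deposited values of a region or their sum over the regions of a gene (those that overlap it, or for which it is the nearest protein-coding gene within 100 kb). Changes are log2 differences from limma on log2(value + 1) with the pool as a term, with Benjamini-Hochberg adjustment over all features and a threshold of 0.05. "Unpaired" counts come from the same fit without the pool term.

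Over the genome, cells with LPS and continuous IL-10 differed from untreated cells in both directions. H3K27ac was higher in 6226 of 36621 regions (17.0%) and lower in 6903 (18.8%), so that 35.9% of tested regions passed in either direction. The median log2 change was 3.08 among higher and -3.04 among lower regions, and 6146 and 6838 of them had the same sign in all 3 pools. In 2231 of the higher regions (35.8%), all untreated libraries held 3 reads or fewer. In 1700 of the lower regions (24.6%), all continuous IL-10 libraries did. The unpaired counts were 4029 higher and 4530 lower. Without untreated replicate 1, 4979 regions were higher and 4481 lower. Centring every library on its median moved the median change of all regions by 0.33 and the counts to 8073 higher and 5502 lower, so that 59.5% of called regions were higher, against 47.4% as deposited. Of gene sums, 1847 of 13482 were higher (13.7%) and 2288 lower (17.0%), 30.7% in either direction, with unpaired counts of 1162 and 1204 and a median change over all genes of -0.09.

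**Figure D1:**
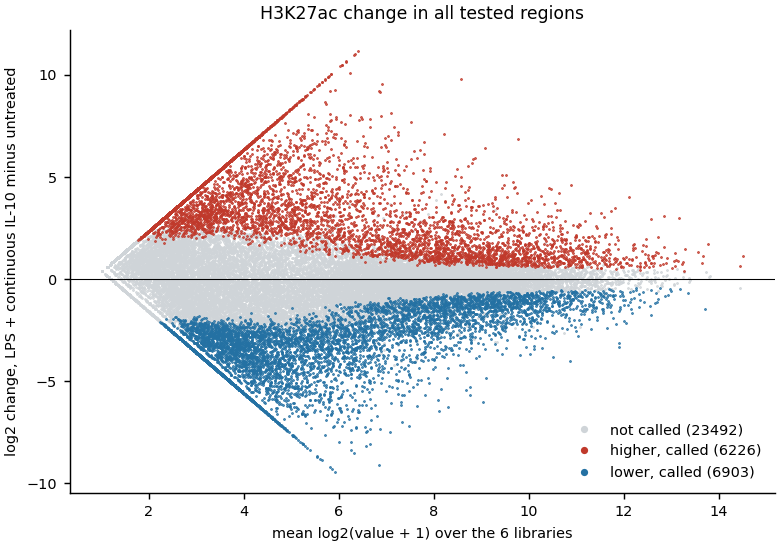
Each point is 1 of 36621 tested regions, with its mean log2(value + 1) over the 6 libraries on the x axis and the log2 change, LPS with continuous IL-10 minus untreated, on the y axis. Red points are the 6226 regions called higher and blue points the 6903 called lower; the sloping edges are regions at the floor in one of the groups.

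Set against LPS alone, the same libraries differed at fewer regions. H3K27ac was higher with continuous IL-10 than with LPS in 2719 regions (7.42%) and lower in 3287 (8.98%), 16.4% in either direction, with unpaired counts of 1201 and 1186. Among gene sums, 989 were higher (7.34%) and 1382 lower (10.3%), 17.6% in either direction, with unpaired counts of 349 and 427. Without LPS replicate 3, which correlated least with its group's other libraries, 2507 regions were higher and 3585 lower. Without LPS replicate 1, the counts were 1724 and 1650, without LPS replicate 2 they were 1694 and 1439, and without continuous IL-10 replicate 2 they were 1812 and 1988. Gene counts without these same 3 libraries were 494 and 694, 572 and 566, and 627 and 834. The comparisons with untreated and with LPS share the continuous IL-10 libraries, so their values are given side by side below.

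The share of regions that passed is given by position and width, as a description. Regions that hold a gene start were higher in 10.5% and lower in 11.5% of 8723 cases, with median changes of 1.46 and -1.61 among those called. Regions inside genes without a start were higher in 16.6% and lower in 21.0% of 16706. Regions outside genes with a gene within 100 kb were higher in 20.8% and lower in 22.4% of 8814. Regions with no gene within 100 kb were higher in 29.4% and lower in 17.4% of 2378. By width, the shares were 7.44% higher and 11.1% lower under 2 kb, 17.1% and 20.3% from 2 to 10 kb, and 33.6% and 26.7% from 10 kb on. The median untreated value was 12.4 in the narrowest class and 711 in the widest. By position it was 265 at gene starts, 38.4 inside genes without a start, 28.9 outside genes with a gene within 100 kb, and 18.7 with none. The depth behind the calls thus differs between the classes of width and of position.

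**Figure D2:**
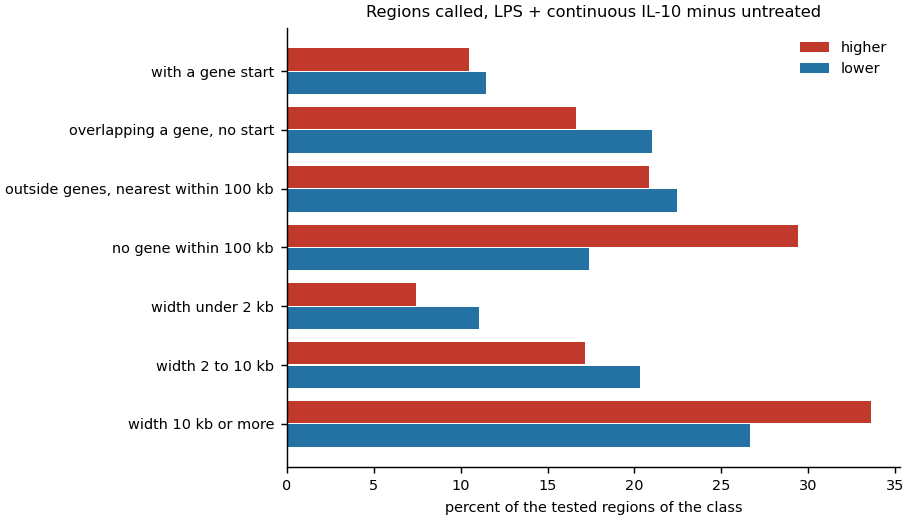
Bars give the percent of tested regions of each class that were called higher (red) or lower (blue), LPS with continuous IL-10 minus untreated. The share higher is 10.5% at gene starts and 29.4% where no gene lies within 100 kb, and 7.44% under 2 kb of width and 33.6% at 10 kb or more. The median untreated value differs between the classes.

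A set of broad regions with no signal in untreated cells carried nearly the same H3K27ac with continuous IL-10 as with LPS alone. These were chosen as the largest changes over untreated whose 95% interval against LPS lies within -1 to 1, so their size is a description. A 55404-bp region over Rcl1 (chr19:29136431-29191834) had values of 5264, 5143 and 1671 with continuous IL-10, 4801, 6238 and 1040 with LPS, and 0.707, 1.26 and 0.419, which is 1 read per library, in untreated cells. It was at least 1687-fold higher with continuous IL-10 than untreated, counting 3 reads per untreated library, and its log2 difference from LPS was 0.18 (95% interval -0.52 to 0.88). A region over Alpk2 (chr18:65295205-65343275) was at least 1816-fold higher than untreated, with a difference from LPS of -0.26 (-0.92 to 0.40). The third, over Atp8b4 (chr2:126298186-126328181), was at least 1126-fold higher, with 0.32 (-0.34 to 0.98). Regions 63.1 kb from Zc3h12c, 73.4 kb from Psmg1 and 67.1 kb from Mreg were at least 810-fold, 792-fold and 448-fold higher than untreated. Their differences from LPS were -0.08 (-0.67 to 0.52), -0.27 (-0.84 to 0.30) and 0.04 (-0.71 to 0.79). In all 6 regions the third pool was the lowest of both stimulated groups, and every stimulated library was above every untreated one.

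Other regions among the 8 largest increases lay near Edn1, Dcn and Lyrm9 and over Mrpl39. A region 51.1 kb from Edn1, the gene of endothelin-1 (chr13:42359078-42386011), averaged 3020 with continuous IL-10, 1932 with LPS and 0.795 in untreated cells. A region 72.4 kb from Dcn (chr10:97372195-97407104) averaged 4857 with continuous IL-10, 3661 with LPS and 0.795 in untreated cells, and is linked to Dcn only by distance. A region over Mrpl39 (chr16:84696250-84722216) averaged 2913 with continuous IL-10, 7579 with LPS and 0.795 in untreated cells. Of these 3, the Mrpl39 region differed from LPS by limma (log2 -1.37 ± 0.29 SE, adjusted p = 0.00575), a call lost in the unpaired fit (adjusted p = 0.236) and without LPS replicate 2 (0.0556). The region 12018 bp from Lyrm9 was at least 1292-fold higher than untreated.

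LPS effector genes, which encode enzymes, receptors and secreted mediators of the activated macrophage, lay well above untreated cells, with a median a little under the LPS level. Of 37 genes, 27 were higher with continuous IL-10 and 1 was lower, beside 13.7% and 17.0% of all genes. The median change was 2.62 against -0.09 over all genes tested. The count of higher genes was 24 unpaired and 23 to 29 when libraries were left out in turn. Against LPS, none of the 37 was higher by limma (1 at an unadjusted p under 0.05 and 1 by edgeR). By limma 8 were lower (3 unpaired, 13 at an unadjusted p under 0.05 and 9 by edgeR), beside 10.3% of all genes. The median was -0.32, against 0.03 over all genes. Leaving out continuous IL-10 replicate 2 gave 5 lower. Fpr1 and Fpr2 share their regions and count as 2 genes here.

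Ptgs2, the inducible cyclooxygenase of prostaglandin synthesis, summed to 5910, 5338 and 1766 with continuous IL-10, 5269, 6058 and 601 with LPS, and 19.1, 12.6 and 19.7 in untreated cells. Continuous IL-10 and untreated libraries did not overlap, and the third pool was lowest in both stimulated groups. Its change was 7.74 ± 0.60 (SE; limma adjusted p = 1.29e-05) over untreated and 0.51 ± 0.60 against LPS (adjusted p = 0.646). The region at the gene start (chr1:150095219-150106183) and one 86.4 kb downstream (chr1:150194605-150212793) both stood at 1 read per library in untreated cells, and averaged 638 and 1741 with continuous IL-10.

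Edn1 summed to 8346, 6890 and 3155 with continuous IL-10, 7207, 7428 and 1964 with LPS, and 7.78, 25.2 and 4.61 in untreated cells, a change of 9.02 ± 0.29 over untreated (limma adjusted p = 9.23e-12) and of 0.26 ± 0.29 against LPS (adjusted p = 0.615). Saa3, an acute phase serum amyloid A gene whose single region is shared with Saa1, Saa2, Saa4, Hps5 and Saal1, had 14968, 11377 and 8565 with continuous IL-10, 2953, 3558 and 1694 with LPS, and 65.7, 20.2 and 0.419 in untreated cells. Every continuous IL-10 library at this locus was above every LPS library, but the fit gave 2.12 ± 0.95 against LPS (limma adjusted p = 0.199) and 9.81 ± 0.95 over untreated (adjusted p = 2.85e-04). Cd80, a costimulatory ligand for T cells, was the gene of the list that was lower than untreated (-0.60 ± 0.22, adjusted p = 0.0452), a call lost unpaired (adjusted p = 0.125) and without any 1 of the 6 libraries (0.0749 to 0.127).

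Marco, a scavenger receptor for bacteria, summed to 1629, 1686 and 1366 with continuous IL-10, 3679, 4465 and 2363 with LPS, and 193, 103 and 62.0 in untreated cells. All 3 groups were separate from each other. The changes were 3.84 ± 0.29 over untreated (limma adjusted p = 9.00e-08) and -1.12 ± 0.29 against LPS (adjusted p = 0.0132, and 0.104 unpaired). The call against LPS was lost if continuous IL-10 library 1 or 2 was left out or LPS library 2 (adjusted p up to 0.104). Most of the stimulated value lay in a 42883-bp region over the gene (chr1:120496607-120539489), at 1 read per library in untreated cells.

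Nos2, the inducible nitric oxide synthase, summed to 2275, 1024 and 724 with continuous IL-10, 1301, 1002 and 534 with LPS, and 136, 102 and 146 in untreated cells. Its change was 3.23 ± 0.35 over untreated (limma adjusted p = 5.80e-06) and 0.43 ± 0.35 against LPS (adjusted p = 0.467). Within the gene, a region was higher with continuous IL-10 than with LPS and than untreated: chr11:78945275-78956828 averaged 268 with continuous IL-10, 2.03 with LPS and 0.795 in untreated cells, with changes of 7.06 over untreated and 6.45 against LPS (adjusted p = 5.21e-05 for LPS). It averaged 553 with IL-10 in the last 30 min, and was picked among the regions of Nos2 after its values were seen.

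**Figure D3:**
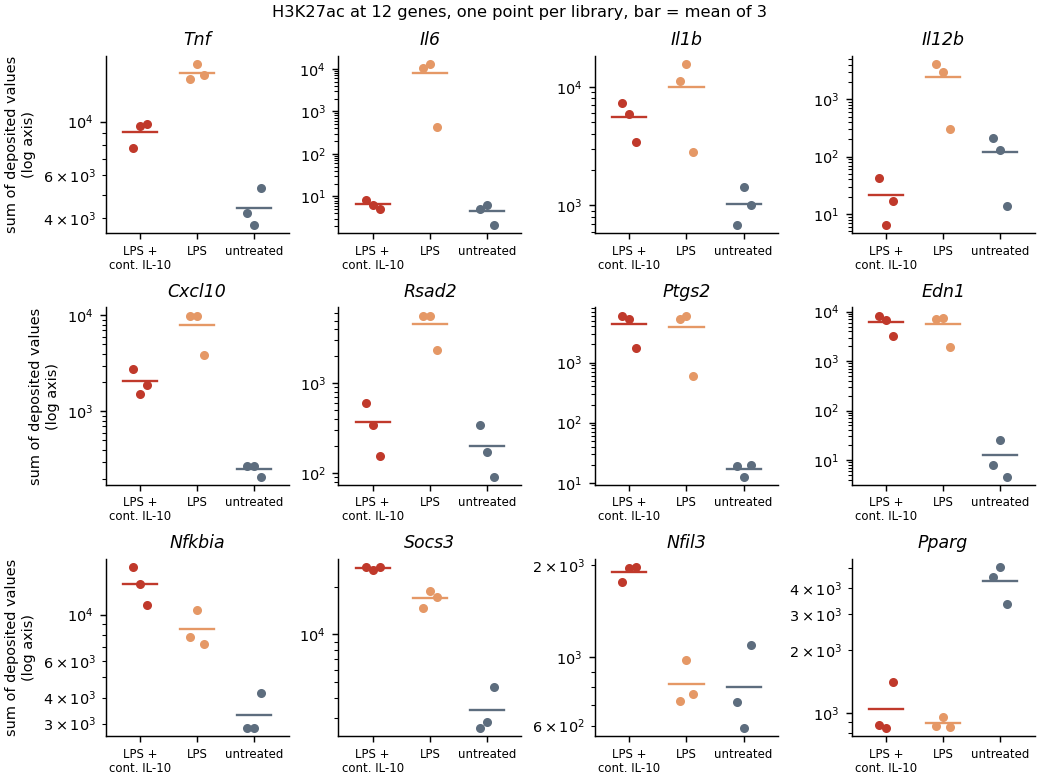
Summed H3K27ac at 12 genes on log axes, 1 point per library and bars at the mean of 3, with LPS and continuous IL-10 at the left, LPS in the middle and untreated at the right. Ptgs2 and Edn1 stand at LPS-like values with continuous IL-10, Il6 and Il12b near the floor, and every continuous IL-10 library of Socs3, Nfkbia and Nfil3 above the LPS libraries.

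Of 28 genes of NF-kB and its feedback, 18 were higher than untreated (12 unpaired, 12 to 21 with libraries left out) and none lower by limma (0 at an unadjusted p under 0.05 and 0 by edgeR), beside 13.7% and 17.0% of all genes. The median change was 0.97. Against LPS, 2 were higher and 9 lower, beside 7.34% and 10.3% of all genes, with a median of -0.28. The 9 became 1 without LPS replicate 1 or 2, 1 unpaired, and 2, 3 and 5 without continuous IL-10 replicates 2, 3 and 1. Nfkbia, the inhibitor that holds NF-kB in the cytoplasm, had 16915, 14037 and 11081 with continuous IL-10, 7790, 10468 and 7193 with LPS, and 2858, 2868 and 4218 in untreated cells, with no overlap between groups. It rose by 2.08 ± 0.23 over untreated (limma adjusted p = 4.96e-06) and by 0.72 ± 0.23 over LPS (adjusted p = 0.0380, and 0.121 unpaired). The call over LPS was lost without any LPS library or continuous IL-10 replicate 1 or 2 (adjusted p up to 0.197). Tnfaip3, the A20 ubiquitin editor that damps NF-kB signalling, rose by 2.86 ± 0.26 over untreated (adjusted p = 1.20e-06) and differed from LPS by 0.02 ± 0.26 (95% interval -0.52 to 0.57). Socs1, an inhibitor of interferon receptor signalling, rose by 2.76 ± 0.43 over untreated (adjusted p = 2.29e-04) and was 1.35 below LPS on the log2 scale (-1.35 ± 0.43, adjusted p = 0.0430, and 0.149 unpaired), a call lost without any 1 of the 6 libraries (up to 0.200).

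Among inflammatory cytokine genes, Tnf and Il1b were higher than in untreated cells, and Il6 was at the floor. Of 21 tested genes, 11 were higher than untreated (12 unpaired, 11 to 14 with libraries left out) and 3 were lower (1 unpaired, 1 without continuous IL-10 replicate 2 or untreated replicate 3). Among all genes, 13.7% were higher and 17.0% lower, and the median change of the 21 was 1.04. Against LPS, none was higher by limma (0 at an unadjusted p under 0.05 and 0 by edgeR) and 14 were lower (9 unpaired, 11 to 15 with libraries left out), beside 7.34% and 10.3% of all genes. The median was -1.62. Tnf, Lta and Ltb lie in 1 shared region and count as 3 of these genes.

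Tnf, the gene of tumour necrosis factor, had 7771, 9600 and 9772 with continuous IL-10, 14928, 17258 and 15555 with LPS, and 4192, 3736 and 5344 in untreated cells, all in the shared region chr17:35184377-35237216. The groups did not overlap, and the changes were 1.04 ± 0.17 over untreated (limma adjusted p = 2.50e-04) and -0.82 ± 0.17 against LPS (adjusted p = 0.00395). Il1b, the gene of interleukin 1 beta, had 7266, 5917 and 3406 with continuous IL-10, 11280, 15514 and 2824 with LPS, and 680, 1417 and 1000 in untreated cells. It rose by 2.41 ± 0.40 over untreated (adjusted p = 7.26e-04), and its difference from LPS, -0.58 (95% interval -1.46 to 0.29), did not pass. A region 26.8 kb from Il1b (chr2:129397996-129415771) averaged 1137 with continuous IL-10, 1746 with LPS and 2.48 in untreated cells.

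Il6, a cytokine of the acute phase response, was at the floor with continuous IL-10. Its 5 regions summed to 8.43, 6.35 and 4.93 with continuous IL-10, 10200, 12851 and 424 with LPS, and 4.95, 6.30 and 2.09 in untreated cells. No fold is given against untreated, since both groups held 3 reads or fewer in each region and library. Against LPS, Il6 was at least 397-fold lower (limma adjusted p = 2.85e-05), and the adjusted p was at most 0.00233 with any library left out. The gene start region (chr5:30006893-30019440) and a 69128-bp region 33.7 kb away (chr5:29910297-29979424) averaged 1522 and 5755 with LPS, against a mean of 1.31 with continuous IL-10 in each.

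Il12b, the p40 subunit of IL-12 and IL-23, summed to 42.2, 6.35 and 16.8 with continuous IL-10, 4106, 2946 and 303 with LPS, and 214, 132 and 13.8 in untreated cells. It was 6.44 below LPS on the log2 scale (-6.44 ± 0.73, limma adjusted p = 1.48e-04). Its change from untreated, -2.08 ± 0.73 with an adjusted p of 0.0496, was not in the same direction in every pool and was lost unpaired (adjusted p = 0.319) and without any library but continuous IL-10 replicate 3 (up to 0.189). The other IL-12 subunit gene, Il12a, lay between: 325, 211 and 32.5 with continuous IL-10, 1812, 2038 and 397 with LPS, and 2.83, 20.2 and 1.67 in untreated cells, changes of 4.46 ± 0.49 over untreated and -3.10 ± 0.49 against LPS (adjusted p = 5.59e-06 and 4.71e-04, the second 0.108 unpaired). Csf2, the gene of GM-CSF, had the same order, at 4.90 ± 0.44 over untreated (adjusted p = 8.10e-07) and -2.44 ± 0.44 against LPS (adjusted p = 0.00134, and 0.180 unpaired). Osm, oncostatin M, was lower than untreated by limma (-1.21 ± 0.28, adjusted p = 0.00295) and did not differ from LPS past the threshold (-0.60, 95% interval -1.18 to -0.01). Il15, a growth factor for natural killer and memory T cells, was -0.82 ± 0.25 against untreated (adjusted p = 0.0176, 0.483 unpaired, and lost without continuous IL-10 replicate 2 or untreated replicate 3, at up to 0.121) and -2.75 ± 0.25 against LPS (adjusted p = 4.44e-06).

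Chemokine genes moved in both directions from untreated. Of 20 tested, 7 were higher (5 unpaired) and 5 lower (2 unpaired), beside 13.7% and 17.0% of all genes, with a median change of 0.41, and 6 of the 20 share a region with another chemokine of the list. Against LPS, 1 was higher and 10 were lower (5 unpaired, 7 to 14 with libraries left out), beside 7.34% and 10.3% of all genes, with a median of -1.36. Cxcl10, a ligand of CXCR3 that draws T cells, had 2789, 1506 and 1892 with continuous IL-10, 9791, 9962 and 3863 with LPS, and 271, 270 and 209 in untreated cells. The 3 groups were separate, at 3.00 ± 0.26 over untreated (limma adjusted p = 3.89e-07) and -1.85 ± 0.26 against LPS (adjusted p = 1.58e-04). Ccl5, a chemokine that draws T cells and monocytes, had 5040, 2990 and 3479 with continuous IL-10, 10432, 13494 and 5197 with LPS, and 599, 517 and 525 in untreated cells, at 2.77 ± 0.26 over untreated (adjusted p = 1.15e-06) and -1.27 ± 0.26 against LPS (adjusted p = 0.00307, and 0.0502 unpaired). Ccl24 and Ccl17, ligands of CCR3 and CCR4 that are linked to type 2 immunity, were at the floor with continuous IL-10. Ccl24 had 115, 120 and 159 in untreated cells and was at least 33.2-fold lower with continuous IL-10, and Ccl17 had 45.2, 71.9 and 44.8 in untreated cells and was at least 6.85-fold lower (adjusted p = 3.19e-04 and 0.00102).

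Interferon response genes lay a little above the untreated level and far under the LPS level. Of 33 tested genes, 17 were higher than untreated and 1 was lower, beside 13.7% and 17.0% of all genes, with a median change of 0.99. The 17 became 8 unpaired, 11 without continuous IL-10 replicate 1, and up to 21 with other libraries left out. Against LPS, 29 of the 33 were lower (12 unpaired; 19 without LPS replicate 2) and 1 was higher, with a median of -1.74, beside the 10.3% of all genes that were lower. Rsad2 with Cmpk2 and Oasl1 with Oasl2 share regions.

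Irf7, the transcription factor that amplifies type I interferon, had 519, 285 and 221 with continuous IL-10, 1753, 1551 and 1518 with LPS, and 209, 154 and 138 in untreated cells. Its change over untreated, 0.96 ± 0.25 (limma adjusted p = 0.00855), was lost unpaired (adjusted p = 0.0990) and without continuous IL-10 replicate 1 (0.0547), and its change against LPS was -2.32 ± 0.25 (adjusted p = 2.46e-05). Rsad2, which encodes the antiviral enzyme viperin, had 604, 347 and 153 with continuous IL-10, 5686, 5582 and 2343 with LPS, and 342, 170 and 90.9 in untreated cells. Each pool was higher with continuous IL-10 than untreated although the groups overlap, and 0.86 ± 0.23 (adjusted p = 0.00861) became an adjusted p of 0.431 unpaired and 0.0586 without untreated replicate 2. Against LPS it was -3.72 ± 0.23 (adjusted p = 9.63e-08). Gbp5, a guanylate-binding protein of inflammasome activation, and Oasl2 had the largest rises of the list over untreated, at 3.64 ± 0.82 and 2.84 ± 0.54 (adjusted p = 0.0131 and 0.00319); Gbp5 was lost without continuous IL-10 replicate 1 (0.0562). Irf8, a lineage factor of myeloid cells, was the gene of the list that was lower than untreated and the gene that was higher than LPS: 1696, 1334 and 1767 with continuous IL-10, 724, 849 and 1137 with LPS, and 2732, 2504 and 3987 in untreated cells, or -0.92 ± 0.20 and 0.84 ± 0.20 (adjusted p = 0.00231 and 0.00946, the second 0.0744 unpaired and lost if continuous IL-10 library 1 was left out or LPS library 1, at up to 0.0843).

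**Figure D4:**
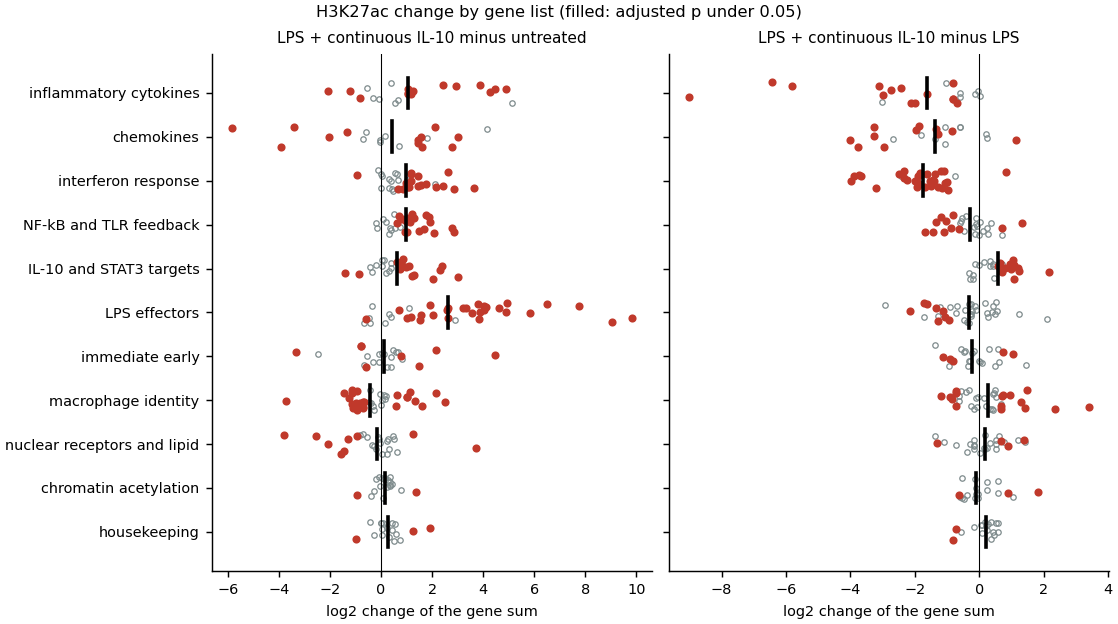
Each point is a tested gene of a list, at the log2 change of its summed H3K27ac: LPS with continuous IL-10 minus untreated at the left, minus LPS at the right. Filled points pass an adjusted p of 0.05 and black bars are medians. LPS effectors have a median of 2.62 at the left and -0.32 at the right, interferon response genes 0.99 and -1.74, and IL-10 and STAT3 targets 0.62 and 0.58.

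IL-10 and STAT3 target genes had medians above both untreated cells and LPS. Of 25 genes, 13 were higher than untreated (10 unpaired, 10 to 15 with libraries left out) and 2 lower, beside 13.7% and 17.0% of all genes. The median change was 0.62. Against LPS, 12 were higher (4 unpaired, 5 without LPS replicate 1) and none lower by limma (0 at an unadjusted p under 0.05 and 0 by edgeR), with a median of 0.58, beside the 7.34% of all genes that were higher. Socs3, the feedback inhibitor induced by STAT3, had 26550, 25317 and 26424 with continuous IL-10, 14682, 18663 and 17100 with LPS, and 2579, 2812 and 4669 in untreated cells over a 100056-bp region shared with Pgs1 (chr11:117901391-118001446). It rose by 3.01 ± 0.19 over untreated (limma adjusted p = 1.26e-08) and by 0.64 ± 0.19 over LPS (adjusted p = 0.0289, and 0.102 unpaired), a call lost if continuous IL-10 library 1 or 2 was left out or LPS library 1 or 3 (up to 0.140).

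Nfil3, a transcription repressor that lowers Il12b in macrophages, had 1765, 1956 and 1972 with continuous IL-10, 720, 983 and 760 with LPS, and 717, 589 and 1100 in untreated cells. The continuous IL-10 libraries were above those of LPS and untreated cells, at 1.29 ± 0.23 over untreated and 1.22 ± 0.23 over LPS (limma adjusted p = 5.17e-04 and 0.00201). Besides its start, a region 37.8 kb from it (chr13:53020676-53026917) averaged 134 with continuous IL-10, 14.6 with LPS and 1.50 in untreated cells. Il4ra, the alpha chain of the IL-4 receptor, had 13401, 9428 and 10786 with continuous IL-10, 4579, 5838 and 5306 with LPS, and 7593, 6415 and 7700 in untreated cells. It was 0.62 ± 0.19 over untreated (adjusted p = 0.0188, lost without continuous IL-10 replicate 1 or 3 or untreated replicate 1 or 2, at up to 0.120) and 1.09 ± 0.19 over LPS (adjusted p = 9.07e-04), and shares a region with Il21r. A region 22.6 kb before Il4ra (chr7:125521170-125529624) averaged 209 with continuous IL-10, 1.37 with LPS and 0.795 in untreated cells, at 6.90 over untreated and 6.54 over LPS. This region and the one 37.8 kb from Nfil3 were picked after their values were seen.

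Slpi, a secreted inhibitor of neutrophil elastase, had 946, 1218 and 856 with continuous IL-10, 114, 363 and 263 with LPS, and 57.3, 277 and 439 in untreated cells, at 2.37 ± 0.42 over untreated and 2.16 ± 0.42 over LPS (limma adjusted p = 5.38e-04 and 0.00266, the second 0.0776 unpaired). Bcl3, an atypical IkB protein, was near the untreated level and above LPS: 4136, 3120 and 4676 with continuous IL-10, 1539, 1633 and 2628 with LPS, and 2969, 2739 and 3939 in untreated cells, at 0.30 (95% interval -0.11 to 0.72) and 1.06 ± 0.19 (adjusted p = 0.269 and 0.00140). The antagonist gene Il1rn, whose product blocks the IL-1 receptor, rose by 2.04 ± 0.25 over untreated (adjusted p = 1.91e-05) and differed from LPS by 0.33 (95% interval -0.21 to 0.87). Mrc1, the mannose receptor, and Cd163, the haemoglobin scavenger receptor, were lower than untreated, at -1.43 ± 0.23 and -0.85 ± 0.26 (adjusted p = 2.26e-04 and 0.0216, the second 0.245 unpaired and lost without continuous IL-10 or untreated replicates 1 or 2, at up to 0.154). Cd163 was higher than LPS at 0.96 ± 0.26 (adjusted p = 0.0189, and 0.268 unpaired), lost if continuous IL-10 library 3 was left out or LPS library 1 or 3 (up to 0.119).

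Some regions carried H3K27ac with continuous IL-10 and little or none with LPS alone and in untreated cells; with IL-10 in the last 30 min of LPS they carried it too. The 6 regions with the largest such change were chosen by the smaller of their changes over untreated and over LPS, so their size is a description. The first 3 lie in Zfp618, a zinc finger gene: chr4:63042912-63064022 had 3480, 2172 and 2052 with continuous IL-10, 1.97, 1.68 and 0.464 with LPS, and 0.707, 1.26 and 2.09 in untreated cells. The region at chr4:63068972-63101235 averaged 2497 with continuous IL-10, 9.72 with LPS and 0.795 in untreated cells, and the region at chr4:63110623-63130512 averaged 1381, 1.37 and 0.795 in the same order. An 11001-bp region over Acat2 and Acat3, acetyl-CoA acetyltransferase genes (chr17:12934831-12945831), had 767, 424 and 539 with continuous IL-10 and 3 reads or fewer in every LPS and untreated library, at least 140-fold and 242-fold higher. A region 55.0 kb from Syf2 (chr4:134992549-135008285) had 1442, 1206 and 1406 with continuous IL-10, 1.97, 1.68 and 153 with LPS, and 0.707, 1.26 and 53.6 in untreated cells. The sixth lies 27.2 kb from Arg1, arginase 1 (chr10:24954666-24969971), with 663, 554 and 783 with continuous IL-10, 47.2, 1.68 and 0.464 with LPS, and 0.707, 1.26 and 0.419 in untreated cells. With IL-10 in the last 30 min, the means of the 3 Zfp618 regions, in the order above, were 1527, 1411 and 507, the Acat2 and Acat3 region had 666, 396 and 515, the Syf2 region 498, 441 and 685, and the Arg1 region 104, 147 and 245. H3K27ac at these regions was thus present with either IL-10 schedule. At the Zfp618, Syf2 and Arg1 regions, every continuous IL-10 library was above every library with IL-10 in the last 30 min. At the Acat2 and Acat3 region the libraries overlapped. The difference between the 2 IL-10 groups was not tested. Unpaired and with any library left out, the adjusted p of these 6 regions against either group was at most 0.0137.

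The remaining regions of Zfp618 and Arg1 were looked up after these values were seen. Zfp618 summed over 12 regions to 14943, 8676 and 10585 with continuous IL-10, 710, 460 and 863 with LPS, and 92.6, 218 and 223 in untreated cells, and to 9004, 7004 and 8861 with IL-10 in the last 30 min. The continuous IL-10 change was 6.06 ± 0.32 over untreated and 4.08 ± 0.32 over LPS (limma adjusted p = 8.45e-09 and 3.62e-06). The region with its start (chr4:62964380-62970114) averaged 296 with continuous IL-10, 3.23 with LPS and 0.795 in untreated cells, and the region at its 3′ end, which holds the start of Ambp, averaged 4289, 653 and 169. Arg1, which turns arginine into ornithine and competes for arginine with Nos2, summed over 4 regions to 4640, 3012 and 3464 with continuous IL-10, 474, 622 and 347 with LPS, and 619, 933 and 1061 in untreated cells. Its changes were 2.10 ± 0.27 over untreated and 2.96 ± 0.27 over LPS (adjusted p = 2.09e-05 and 4.49e-06). With IL-10 in the last 30 min, Arg1 summed to 1139, 1353 and 1232. The continuous IL-10 libraries were above those of LPS and untreated cells at each of the 4 Arg1 regions.

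**Figure D5:**
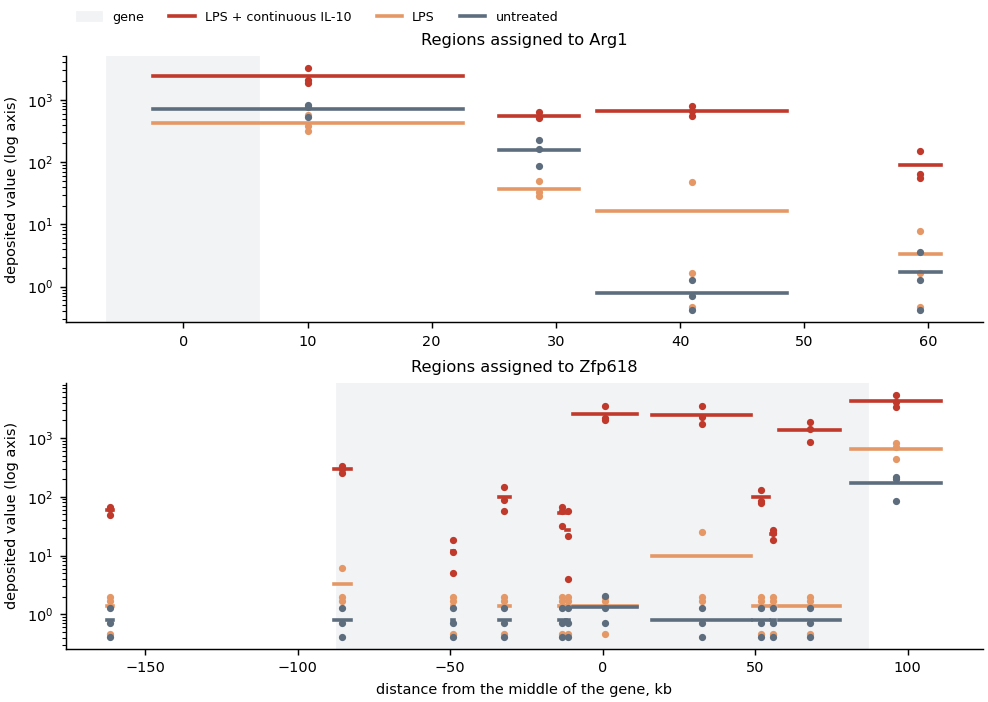
Deposited values (log axis) of the regions assigned to Arg1 (top) and Zfp618 (bottom), placed by their distance in kb from the middle of the gene; bars span the region at the group mean, points are libraries and grey marks the gene. Continuous IL-10 (red) lies above LPS (orange) and untreated (grey-blue) at each region, and most Zfp618 regions stand near 1 read per library with LPS and in untreated cells.

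Regions lower with continuous IL-10 than with LPS and than in untreated cells were chosen by the mirrored rule. A region 21.3 kb from Exoc6 (chr19:37499245-37515458) was at the floor with continuous IL-10, had 1444, 1348 and 462 with LPS, and 334, 272 and 271 in untreated cells, at least 275-fold lower than LPS and 74.1-fold lower than untreated. In a Pappa2 region (chr1:158868879-158878830) the means were 4.12 with continuous IL-10, 987 with LPS and 255 in untreated cells. In an Abcb1a region, a drug transporter gene (chr5:8671859-8680068), they were 4.12, 350 and 262 in the same order. Regions over Tns1, Sema6d and Sectm1a averaged 5.91, 29.7 and 12.9 with continuous IL-10, 219, 511 and 260 with LPS, and 399, 494 and 264 in untreated cells.

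Other regions stood near the untreated level with continuous IL-10 and differed from LPS; they were chosen by those 2 properties. A region over Cdh23 and Vsir, the gene of the checkpoint receptor VISTA (chr10:60387361-60402676), had 1260, 1035 and 1298 with continuous IL-10, 55.1, 87.4 and 185 with LPS, and 995, 1039 and 1196 in untreated cells. Its difference from untreated was 0.15 (95% interval -0.50 to 0.80) and from LPS 3.62 ± 0.30 (limma adjusted p = 9.79e-06). Regions over Hecw2 and Tram2 had the same form, at 0.25 (-0.36 to 0.85) and 0.02 (-0.53 to 0.57) from untreated and 2.73 ± 0.28 and 2.70 ± 0.26 over LPS (adjusted p = 4.94e-05 and 2.76e-05). Regions over Kcnab1 and Calml4, and chr10:17196737-17205156 with no gene within 100 kb, stood at -2.92, -2.78 and -2.58 against LPS, with differences from untreated of 0.05 (-0.78 to 0.88), -0.19 (-0.97 to 0.60) and -0.03 (-0.81 to 0.76). Calml4 was lost against LPS in the unpaired fit (adjusted p = 0.0610).

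The largest losses from untreated stood at or near the floor with continuous IL-10, and at the floor with LPS in all but the Stab2 region, where 1 LPS library had 35.4. A Dusp27 region (chr1:166096239-166119322) had 1 read in each stimulated library and 1566, 1273 and 1980 in untreated cells, at least 408-fold lower with continuous IL-10. Regions over Slc16a7, a monocarboxylate transporter gene, and over Stab2, a scavenger receptor gene, were at least 402-fold and 350-fold lower. A 53180-bp Cadm1 region (chr9:47768136-47821315) had 1.69, 1.27 and 17.7 with continuous IL-10, 1 read per library with LPS, and 2896, 3177 and 2102 in untreated cells. Regions near Usp6nl, over Klk1b11 and Klk1b21, over Kmo and Opn3 and over Senp2 were at least 276-fold, 265-fold, 243-fold and 241-fold lower than untreated.

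Genes of macrophage identity, which also check the labelled cell type, moved in both directions. All 36 markers had a region and were tested: 9 were higher than untreated (4 unpaired) and 16 lower (9 unpaired), beside 13.7% and 17.0% of all genes. Their median change was -0.42. Their summed values ran from 130479 to 146991 with continuous IL-10 and from 137436 to 182785 in untreated cells. Against LPS, 10 were higher (3 unpaired, 6 without LPS replicate 1 and 5 without continuous IL-10 replicate 1), with a median of 0.28. Among all genes, 7.34% were higher and 10.3% lower than LPS. In the same comparison 6 were lower, a count of 3 without continuous IL-10 replicate 1 and of 1 without its replicate 2 or without LPS replicate 1 or 2; unpaired, limma gave 0 (9 at an unadjusted p under 0.05 with the pool term and 3 by edgeR). C1qa, C1qb and C1qc share their region and count as 3 of the 16, and Lyz1 with Lyz2 as 2.

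Csf1r, the M-CSF receptor that defines the lineage, had 5780, 5744 and 6176 with continuous IL-10, 3538, 4766 and 5359 with LPS, and 7234, 7365 and 9762 in untreated cells in a region shared with Pdgfrb and Hmgxb3. It lay below untreated in every pool, with a change of -0.45 (95% interval -0.82 to -0.08; limma adjusted p = 0.0633) that did not pass over all genes. Gpnmb, a lysosomal glycoprotein, was -1.44 ± 0.18 against untreated and 0.95 ± 0.18 over LPS (adjusted p = 1.72e-05 and 0.00183, the second 0.0791 unpaired). Gas6, a ligand of the receptor Mertk, had 47.2, 118 and 175 with continuous IL-10, 1.97, 1.68 and 107 with LPS, and 1596, 1297 and 1106 in untreated cells; both of its calls (adjusted p = 0.0112 and 0.0310) were lost unpaired (0.0931 and 0.201). They were also lost without several of the libraries: continuous IL-10 replicates 1 and 3 and untreated replicates 1 and 2 over untreated (up to 0.0692), and LPS and continuous IL-10 replicates 1 and 2 over LPS (up to 0.195). Lpl, lipoprotein lipase, and Itgax, the CD11c integrin, rose by 2.50 ± 0.25 and 2.15 ± 0.23 over untreated (adjusted p = 2.11e-06 and 4.42e-06), and stood at -1.19 ± 0.25 and -0.92 ± 0.23 against LPS (adjusted p = 0.00378 and 0.0123), calls lost unpaired (0.220 and 0.204), that of Itgax also if continuous IL-10 library 2 was left out or LPS library 1 or 2 (up to 0.112).

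Of 26 nuclear receptor and lipid genes, 2 were higher than untreated (1 unpaired) and 7 lower (5 unpaired, 7 to 8 with libraries left out). Their median was -0.16, and 13.7% of all genes were higher and 17.0% lower. Against LPS, 3 were higher (2 unpaired, 2 to 4 with libraries left out), beside 7.34% of all genes. In that comparison 1 was lower (0 unpaired, 1 to 2 with libraries left out), beside 10.3% of all genes, and the median was 0.18. Pparg, the lipid-sensing nuclear receptor, summed over 10 regions to 873, 845 and 1407 with continuous IL-10, 866, 958 and 854 with LPS, and 4506, 5061 and 3361 in untreated cells. It was -2.07 ± 0.24 against untreated (limma adjusted p = 7.40e-06) and 0.18 (95% interval -0.32 to 0.69) from LPS. Its partner Rxra was -2.57 ± 0.43 against untreated (adjusted p = 5.84e-04, and 0.0530 unpaired), and Alox5, the leukotriene-forming 5-lipoxygenase, -3.79 ± 0.69 (adjusted p = 5.24e-04). Ch25h, cholesterol 25-hydroxylase, rose by 3.72 ± 0.45 over untreated (adjusted p = 1.52e-04) and Srebf2, the regulator of sterol synthesis, by 1.26 ± 0.29 (adjusted p = 0.00363, and 0.0870 unpaired). Abca1, the cholesterol exporter, had 11614, 8255 and 5968 with continuous IL-10 and 7310, 8464 and 5561 in untreated cells, which overlap, at 0.24 (95% interval -0.18 to 0.67).

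Immediate early genes, which respond within minutes of a stimulus, passed at about the share of all genes after 195 min, which was 13.7% higher and 17.0% lower. Of 23, 4 were higher than untreated (7 without untreated replicate 3) and 4 lower (1 unpaired, 2 without continuous IL-10 replicate 3 or untreated replicate 2 or 3), with a median of 0.12. Dusp2 and Dusp4, MAP kinase phosphatases, rose by 4.46 ± 0.28 and 2.14 ± 0.23 (limma adjusted p = 1.64e-08 and 3.38e-06); against LPS they were 0.02 (95% interval -0.57 to 0.62) and -0.82 ± 0.23 (adjusted p = 0.0189, 0.156 unpaired, and lost if continuous IL-10 library 2 or 3 was left out or LPS library 1 or 2, at up to 0.133). Fosb, an AP-1 subunit, was -3.31 ± 0.71 and Ier5 -0.78 ± 0.18 against untreated (adjusted p = 0.00206 and 0.00396, the second 0.0809 unpaired). Among 19 genes of chromatin acetylation, 1 was higher and 1 lower than untreated: the deacetylase gene Hdac1 rose by 1.38 ± 0.18 (adjusted p = 2.86e-05), in regions shared with Marcksl1 and others, and the demethylase gene Kdm6a was -0.96 ± 0.22 (adjusted p = 0.00263). Of 18 housekeeping genes, 2 were higher, Gapdh and Pgk1 of glycolysis at 1.91 ± 0.34 and 1.26 ± 0.31, and 1 lower, the proteasome gene Psmb2 at -0.97 ± 0.27 (adjusted p = 5.26e-04, 0.00546 and 0.0108). Psmb2 was lost without continuous IL-10 replicate 2 or untreated replicate 1 (0.0543 and 0.0582).

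Markers of other cell types moved at a few loci, beside 13.7% of all genes higher and 17.0% lower than untreated. Of 10 T cell markers 6 had a region, of which 4 were higher and 1 lower than untreated (1 higher unpaired, 2 without continuous IL-10 replicate 1 or 3, and 1 without continuous IL-10 replicate 2 or untreated replicate 1 or 2). Their summed values were 425 to 580 with continuous IL-10 and 444 to 624 in untreated cells, which overlap. No region was assigned to Cd3g, Cd8a, Zap70 or Trac. The largest rises were Cd247 at 3.84 ± 0.61 (limma adjusted p = 1.70e-04, shared with Pou2f1) and Cd8b1, at least 8.40-fold higher, and Cd4 was lower at -3.15 ± 1.09 (adjusted p = 0.0407, and 0.123 unpaired). Cd8b1 was lost unpaired (0.104) and without replicate 1 or 2 of either group (up to 0.0767), and Cd4 without continuous IL-10 replicate 1 or 3 or untreated replicate 1 or 2 (up to 0.202). Of 7 B cell markers 3 were tested and none passed in either direction (0 at an unadjusted p under 0.05 and 0 by edgeR), with sums of 1806 to 2561 and 2509 to 3246. Of 6 tested neutrophil markers 3 were higher and 1 lower (sums 4053 to 4360 and 3090 to 4363), led by Camp, whose region is shared with Nme6, at 7.47 ± 1.31 and Mmp9 at 3.37 ± 0.76, with Mmp8 at -0.82 ± 0.25. Mmp9 and Mmp8 were lost unpaired (0.0577 and 0.130), and Mmp8 also without continuous IL-10 replicate 2 or untreated replicate 1 or 3 (up to 0.0952). Of 9 dendritic cell markers 2 were higher and 3 lower (sums 5263 to 8896 and 8251 to 9532). Ccr7, the lymph node homing receptor, rose by 6.60 ± 0.39 and Bst2 by 1.60 ± 0.24, while Flt3, the receptor of dendritic cell precursors, was -6.47 ± 0.74 and the factor gene Batf3 -3.43 ± 0.48. Of 4 tested fibroblast markers 3 were higher (sums 8500 to 17853 and 7252 to 9771), among them Dcn, at least 309-fold, and Lum, at least 8.55-fold. The 3 became 2 unpaired, 2 with any 1 library left out, and 0 when only overlapping regions were summed. Of 3 erythroid and mast cell markers Gata2 was higher at 3.29 ± 0.83, and 0 were higher with overlapping regions only. The part of other cell types in these values was not tested.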

How the data were processed

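H3K27ac ChIP libraries from 3 macrophage pools in each of 4 groups were analysed; the input library was not analysed. Tools named in the submitters' processing notes are DiffBind, MACS2, Bowtie2 and Trim Galore, with build mm10; which version did what is not given there. For each consensus region (median width 3062 bp), the deposited table holds 1 signal value from every library. From the values, 100% are a whole number of reads times a single factor per library (tolerance 0.0001 reads), with a floor of 1 read; no label or header says whether background was subtracted. Depth is therefore the recovered reads, given with the results; regions at 1 read carry no information on lower levels.

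Regions were assigned to protein-coding genes of RefSeq GRCm38.p6: 27539 by overlap, 10311 to the nearest within 100 kb, and 2841 to none. limma 3.58.1 (R 4.3.3; trend and robust moderation) was fitted to log2(value + 1) over all 12 libraries, with group and pool as terms, leaving out features at or under the 10th percentile of mean log2 value; the unit needed limma and not a count test. A group with 3 reads or fewer in every library was taken as at the floor, and folds against it are bounds. On simulated data with 32958 regions, 7.94%, 64.2% and 97.1% of regions changed by 1, 2 and 3 on the log2 scale were called, with 7 false calls. The regions changed there were few, 63, 67 and 70 in the same order, all above the median mean value. In these data 35.9% of regions passed, so the simulated rates do not carry over to them.

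Libraries were paired by number: the series' design names 3 independent pools, and the titles number the replicates. Same-numbered libraries' deviations from their group means correlated at 0.0993 to 0.378 between continuous IL-10 and untreated, and differently numbered ones at -0.365 to 0.245. These ranges overlap: untreated library 2 correlated at 0.168 with continuous IL-10 library 2 and at 0.245 with library 1. The pairing thus rests on the design and the numbering, and unpaired counts are given beside the main ones. Exact permutation of 3 against 3 cannot go below p = 0.1, so single values were not tested that way.

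The 67 named genes were 20 listed anchor genes plus, per list, up to 2 in each direction with the largest change among those passing in the same direction in 3 pools. Named regions were 36, by size of change. A mean of at least 200 was required of the largest rises and losses and of regions higher or lower than both other groups. It was not required of regions at the LPS level or at the untreated level. The latter also did not need the same direction in 3 pools. The comparison, its 17 gene lists (344 entries) and these rules were chosen with earlier results of these data known. Alternatives were a fit without the pool term, a pseudocount of 10, no filter, median centring, only the groups compared, edgeR 4.0.16 on recovered reads, overlapping regions only, and each library left out; setting values under 3 reads to 3 reads was added after the data were seen.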

Additional observations from a re-analysis of the deposited data

How the results depend on the processing

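Leaving out the pool term (no replicate block) changed every count by more than 1.5 times: 4029 regions higher and 4530 lower than untreated, 1162 and 1204 genes, 1201 and 1186 regions against LPS, and 349 and 427 genes against LPS. With single libraries left out, 4748 to 6285 regions were higher and 4481 to 6254 lower than untreated, and 1343 to 2362 and 1562 to 2156 genes. Against LPS the ranges were 1694 to 2507 and 1439 to 3585 regions, and 494 to 1249 and 566 to 1482 genes. The cause of these shifts was not tested. The other settings, including edgeR on recovered reads (6622 regions higher and 6629 lower than untreated), stayed within 1.5 times. For the 103 named genes and regions, 1326 of 1399 refitted changes from untreated kept direction and side of the threshold and 73 lost the threshold, 14 of them with no replicate block and at most 9 with any 1 library left out. Against LPS, where 51 of the 103 had passed, 1288 of 1393 kept both, 81 lost the threshold and 24 gained it; 21 calls were lost with no replicate block and at most 12 with any 1 library left out. In neither comparison did a called change turn round (0 cases). Depth limits most the regions near 1 read. A change of 1 on the log2 scale was mostly missed in simulation, where few regions were changed, so that rate does not carry over to these data.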
